A study of Mus musculus with 8 samples.

Results

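RNA that came down with an antibody against the cytoplasmic polyadenylation element binding protein CPEB1 from mouse striatum was compared with RNA that came down with rabbit IgG, which collects the RNA that beads and any antibody hold. The comparison took 4 of the 8 arrays of the series, a CPEB1 and an IgG precipitate from an HD pool and from a WT pool, paired by pool. Each of 17097 genes with a probe set of a single gene symbol was read from 1 such probe set, the one highest on average across the 8 arrays. Compared were the 11345 genes of these whose average exceeded 4.23, the midpoint (median) of the averages of every probe set. Values are log2 probe set summaries, so a difference of 1 is 2-fold, and signals of different probe sets are not comparable amounts of RNA.

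The mice were HD and WT males of 7 to 8 months, and the design text, which names 4 mice, has striata of a genotype combined into 1 pool. Formaldehyde fixed RNA to protein, and part of each precleared lysate was kept as input. The other arrays held the inputs and a CPEB4 precipitate of both pools. HD is not spelled out in the labels, and each pool gave 1 array per fraction, so no group has a replicate of its own and the pools stand in for replicates. The RNA was amplified over 27 cycles and 8 µg of cDNA was labelled per array. In a lysate of whole tissue, fewer cells of a type and less RNA per cell cannot be told apart, and a precipitate also follows how much of an RNA was there to bind. The inputs carried striatal transcripts: the probe sets of Adcy5, Pde10a, Ppp1r1b, Penk and Rgs9 lay at or above the 94.4 percentile of all single-symbol genes on both arrays. Those of the dopamine receptors Drd1 and Drd2 lay between the 41.1 and the 57.0 percentile, that of Tac1 at 25.7 (HD) and 5.43 (WT) and that of Pdyn at 54.5 (HD) and 87.9 (WT), so these 4 did not mark the tissue on both arrays.

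CPEB1 binds mRNAs with a U-rich cytoplasmic polyadenylation element in the 3′ untranslated region. It holds such mRNAs with short poly(A) tails and little translation until it is phosphorylated, after which the tail is lengthened and translation starts. In neurons CPEB1 also travels in RNA granules to dendrites, where its targets are translated near synapses. An RNA immunoprecipitation (RIP) measures association with the protein, directly or through other proteins of the same crosslinked particle, and does not measure translation.

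The CPEB1 precipitates held more genes above IgG than below it, and most of what each pool showed alone was not shared by the other. At least 2-fold higher with CPEB1 were 1002 genes in the HD pool, which is 8.83% of the genes compared, and 2134 in the WT pool, which is 18.8%. In both pools the same 508 genes were at least 2-fold higher, 4.48% of all genes compared, 50.7% of the HD list and 23.8% of the WT list. At least 2-fold lower were 584 genes in the HD pool (5.15%) and 513 in the WT pool (4.52%), and 52 genes were lower in both (0.458%), 8.9% of the HD list and 10.1% of the WT list. The balance depended on scaling, with 299 genes higher and 161 lower in both pools after cyclic loess and 341 higher and 143 lower after quantile scaling. A further 179 genes were 2-fold lower with CPEB1 in the HD pool and 2-fold higher in the WT pool, and 38 genes showed the opposite pattern. At 4-fold in both pools 138 genes were higher and 8 lower, and at 8-fold 40 were higher and 4 lower. Just inside the 2-fold line stood Pdrg1 at 1.28 (HD) and 1.002 (WT) and Aatk at 1.80 (HD) and 1.004 (WT), and just outside it Nle1 at 0.999 (HD) and 1.002 (WT) and the ribosomal protein gene Rpl6 at 2.09 (HD) and 0.998 (WT).

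**Figure D1:**
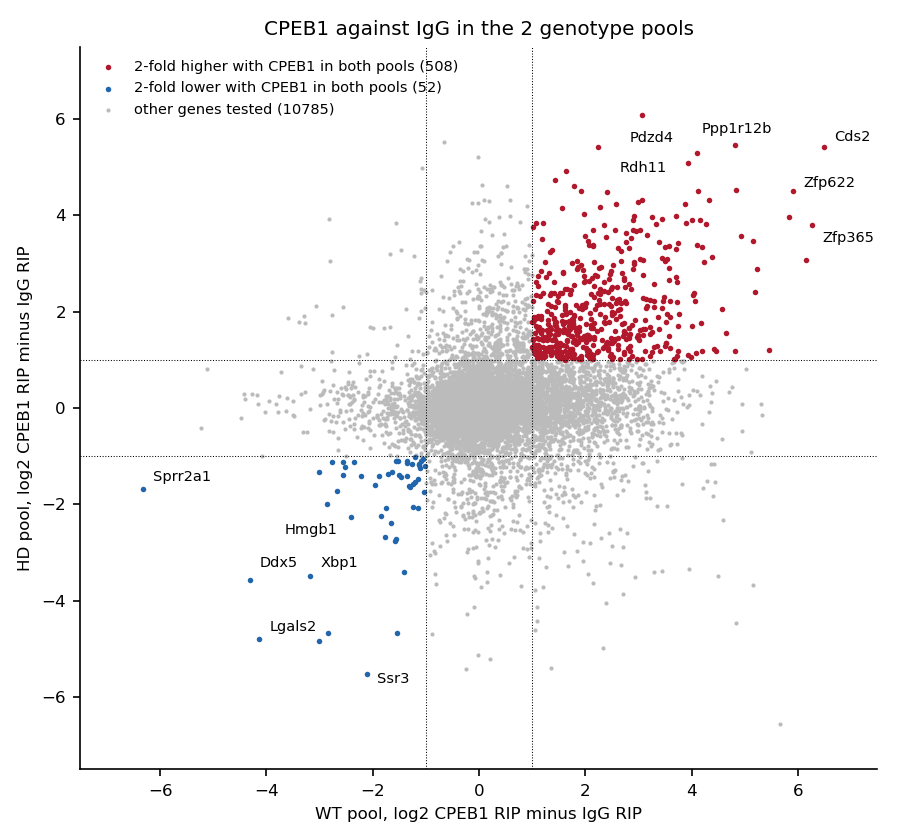
Each point is 1 of the 11345 genes, at its log2 difference between CPEB1 RIP and IgG RIP in the WT pool (x axis) and in the HD pool (y axis), and dotted lines mark 2-fold. Red points are the 508 genes at least 2-fold higher with CPEB1 in both pools and blue points the 52 at least 2-fold lower, and most genes past 2-fold lie along one axis only.

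The spread of the differences over genes had an SD of 0.852 in the HD pool and 1.04 in the WT pool on the log2 scale, around medians of 0.07 (HD) and 0.10 (WT). Over the genes, which are no independent replicates, the differences of the pools correlated at a Pearson r of 0.206 and a Spearman coefficient of 0.185, with no array shared between them. Array against array, the CPEB1 precipitates of the pools correlated at 0.813 and the IgG precipitates at 0.778, while CPEB1 correlated with IgG at 0.799 within the HD pool and 0.786 within the WT pool. The CPEB1 arrays were therefore hardly more like each other than like the IgG array of their own pool.

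No gene passed limma (a linear model with moderated variance, adjusted p under 0.05 over all 11345 genes, model of fraction and pool over the 8 arrays), in either direction, and the share called was 0%. The smallest adjusted p was 0.121. At an unadjusted limma p under 0.05 there were 836 genes, 723 higher with CPEB1 (6.37%) and 113 lower (0.996%). The size rule, 2-fold in both pools, is therefore a description of these 4 arrays with no test behind it. Of the 508 higher genes, 459 had both CPEB1 values above both IgG values, which the size rule itself favours, and 219 read above 8 on both CPEB1 arrays. For these 2 counts no share over all genes was taken. Both IgG values lay under 4.23 for 16 of the 508 (3.15%) and for 350 of all genes compared (3.09%), so this does not set the higher genes apart.

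The genes with the smallest limma p included Lgals2, lower with CPEB1, and 9 genes that were higher: Pdzd4, Sec14l1, Rgp1, Pabpc1, Cds2, Ap2b1, Tro, R3hdm4 and Zfp622. Ap2b1, a large subunit of the clathrin adaptor AP-2, read 8.29 (HD) and 8.44 (WT) with CPEB1, against 4.61 (HD) and 5.48 (WT) with IgG, and its inputs read 3.94 (HD) and 4.81 (WT). Tro, which encodes the cell surface protein trophinin, read 10.75 (HD) and 10.29 (WT) with CPEB1, against 7.99 (HD) and 7.21 (WT) with IgG. Both CPEB1 values stood above all input and IgG values for both genes, with limma log2 differences of 3.32 ± 0.30 for Ap2b1 and 2.93 ± 0.30 for Tro (SE, 1 array per pool and fraction) and adjusted p = 0.121 for each.

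The 25 genes with the largest smaller difference of the pools had varied known functions, by which they were ordered after their values were seen. Pabpc1, the main cytoplasmic poly(A)-binding protein, read 8.05 (HD) and 8.93 (WT) with CPEB1, against 4.66 (HD) and 4.83 (WT) with IgG, and its inputs read 5.20 (HD) and 5.62 (WT). Rbfox2, a regulator of splicing in neurons, read 8.93 (HD) and 10.25 (WT) with CPEB1, against 5.58 (HD) and 6.75 (WT) with IgG. Strbp, which binds double-stranded RNA, read 7.25 (HD) and 9.15 (WT) with CPEB1, against 3.78 (HD) and 3.98 (WT) with IgG. In each of the 3 the CPEB1 values lay above every IgG and input value. The limma log2 differences were 3.75 ± 0.33 for Pabpc1, 3.43 ± 0.48 for Rbfox2 and 4.32 ± 0.47 for Strbp, with adjusted p = 0.121 for Pabpc1, 0.149 for Rbfox2 and 0.121 for Strbp. Hira, a histone chaperone, read 9.30 (HD) and 9.69 (WT) with CPEB1, against 4.99 (HD) and 5.35 (WT) with IgG. Mbd3, a subunit of the NuRD chromatin complex, read 11.89 (HD) and 11.06 (WT) with CPEB1, against 8.52 (HD) and 7.48 (WT) with IgG. Fbxl19, an F-box protein that binds CpG islands, read 9.45 (HD) and 9.35 (WT) with CPEB1, against 4.94 (HD) and 5.24 (WT) with IgG. Hira and Fbxl19 differed between the inputs as well, at 8.26 (HD) and 4.53 (WT) for Hira and 8.55 (HD) and 5.56 (WT) for Fbxl19, whereas the IgG values of both pools were low.

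Cds2, which makes the CDP-diacylglycerol used to build phosphatidylinositol, had the largest smaller difference of all named genes and read 8.74 (HD) and 10.17 (WT) with CPEB1, against 3.32 (HD) and 3.68 (WT) with IgG, a limma difference of 5.95 ± 0.53. Its inputs read 10.24 (HD) and 10.85 (WT), so Cds2 lay far above IgG and below the input in both pools. Becn1 (Beclin 1), part of the lipid kinase complex that starts autophagosomes, read 8.58 (HD) and 8.58 (WT) with CPEB1, against 4.75 (HD) and 4.30 (WT) with IgG. Wipi2, which reads the lipid made by that complex, read 10.21 (HD) and 9.68 (WT) with CPEB1, against 6.65 (HD) and 4.74 (WT) with IgG. Snf8, an ESCRT-II subunit that sorts cargo into endosomes, read 9.66 (HD) and 9.77 (WT) with CPEB1, against 5.75 (HD) and 5.62 (WT) with IgG. For all 3 the CPEB1 values of the pools were close to each other. Rgp1, part of the exchange factor of the Golgi GTPase Rab6, read 9.01 (HD) and 8.81 (WT) with CPEB1, against 5.19 (HD) and 5.47 (WT) with IgG, and Tbc1d16, which carries a Rab GTPase-activating domain, read 9.93 (HD) and 10.68 (WT) with CPEB1, against 6.34 (HD) and 7.52 (WT) with IgG. Sec14l1 read 8.02 (HD) and 8.53 (WT) with CPEB1, against 4.71 (HD) and 4.82 (WT) with IgG, below its inputs of 9.40 (HD) and 9.84 (WT), the other named gene of the 25 with CPEB1 below input in both pools.

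Ppp1r12b, a subunit that brings protein phosphatase 1 to myosin, read 11.60 (HD) and 10.77 (WT) with CPEB1, against 6.15 (HD) and 5.96 (WT) with IgG. Pdzd4, a PDZ domain protein, read 10.51 (HD) and 10.46 (WT) with CPEB1, against 5.21 (HD) and 6.36 (WT) with IgG. In both genes the CPEB1 values lay above every IgG and input value, and the inputs of Pdzd4, at 5.39 (HD) and 5.91 (WT), were no higher than its IgG value in the WT pool. Lynx1, a membrane-anchored modulator of nicotinic acetylcholine receptors, read 10.27 (HD) and 11.74 (WT) with CPEB1, against 6.30 (HD) and 8.47 (WT) with IgG. Panx2, a pannexin channel, read 9.83 (HD) and 10.24 (WT) with CPEB1, against 6.48 (HD) and 6.04 (WT) with IgG. Cabp7, a calcium-binding protein of the Golgi, read 7.69 (HD) and 7.91 (WT) with CPEB1, against 4.26 (HD) and 4.16 (WT) with IgG. For Lynx1 the IgG values of the pools were far apart, and for Panx2 and Cabp7 they were close. Fbxo31, a substrate receptor of a cullin ubiquitin ligase, read 9.94 (HD) and 10.71 (WT) with CPEB1, against 6.10 (HD) and 6.82 (WT) with IgG. Zfp622, whose yeast counterpart takes part in maturation of the large ribosomal subunit, read 8.60 (HD) and 9.92 (WT) with CPEB1, against 4.10 (HD) and 4.01 (WT) with IgG. Rdh11, a retinaldehyde reductase, read 8.54 (HD) and 7.28 (WT) with CPEB1, against 3.46 (HD) and 3.35 (WT) with IgG. Rdh11 was as low in the inputs, at 3.72 (HD) and 3.42 (WT), as with IgG. Zfp365, Fam184a and Fam32a completed the 25, with log2 differences of 3.79 (HD) and 6.26 (WT) for Zfp365, 3.99 (HD) and 3.71 (WT) for Fam184a and 3.44 (HD) and 3.39 (WT) for Fam32a.

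**Figure D2:**
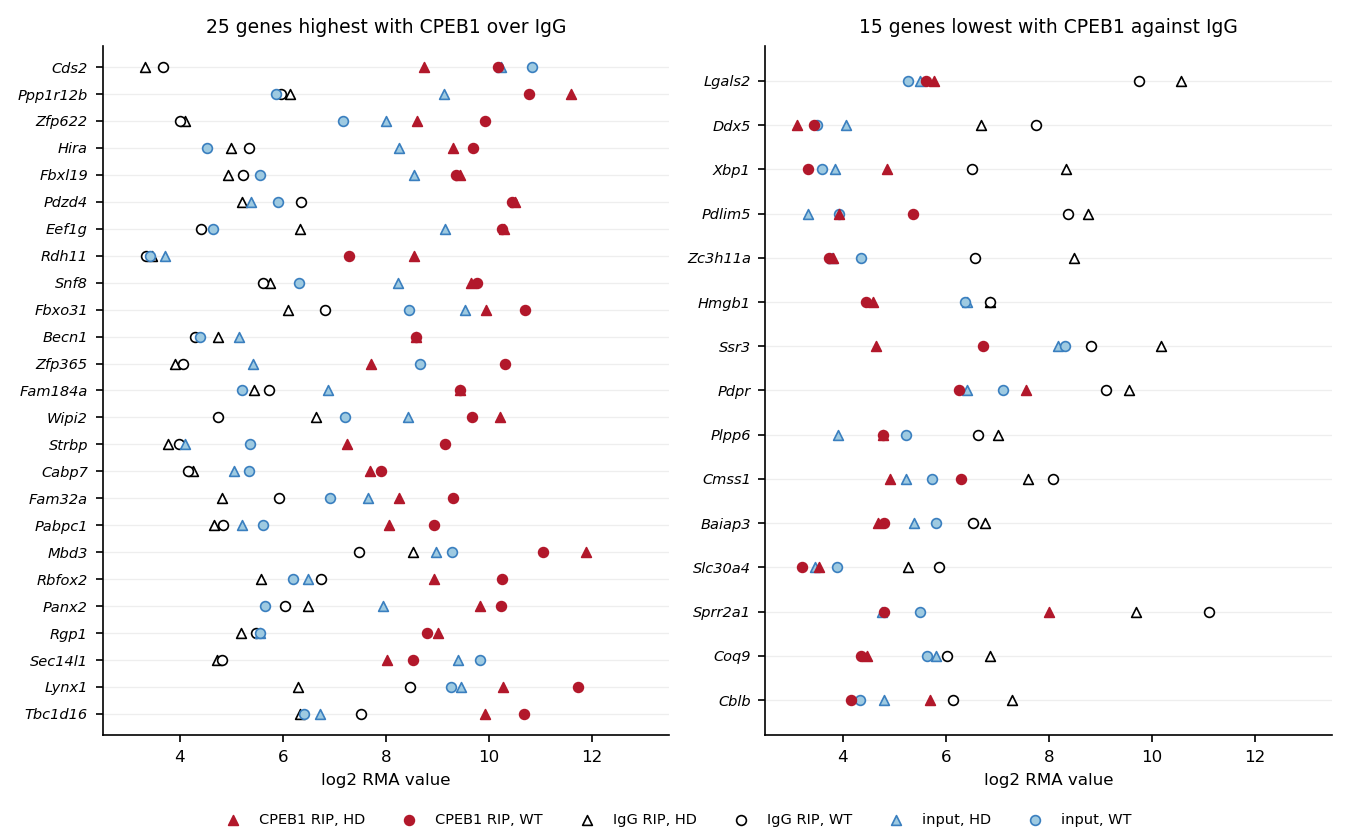
Log2 RMA values (x axis) of the 25 genes highest and the 15 lowest with CPEB1 against IgG, 1 row per gene, ordered by the smaller absolute difference of the pools. Triangles are the HD pool and circles the WT pool, with CPEB1 RIP filled red, IgG RIP open and input blue. All red points lie right of all open points in the left panel and left of the open points of their pool in the right panel.

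Functional classes were described with 59 gene lists by the number of measured members at 2-fold in both pools and by the median difference in each pool, beside 4.48% higher, 0.458% lower and medians of 0.07 (HD) and 0.10 (WT) for all genes compared. The median of 32 lists lay above that of all genes in both pools, that of 8 lists below it in both, and 19 lists split between the pools. The share 2-fold higher exceeded the 4.48% of all genes in 39 of the 59 lists, so a share above it does not single out a list. No member of any list passed limma. Some lists are also counted below under other processing, where the count over all genes differs too. Genes 2-fold higher in both pools were then 299 of 11345 after cyclic loess scaling and 341 of 11345 after quantile scaling. They were 346 of 10100 with the probe sets of a gene averaged, and 396 of 11345 against input in place of IgG. The share of genes at 2-fold higher in both pools went up with the signal of a gene: it was 1.41%, 1.23%, 2.78%, 4.41% and 12.6% over 5 equal bins of the input level from low to high, and between 0.176% in the lowest and 15.5% in the highest of 5 bins of the mean of all 8 arrays. Lists of probe sets with high signal thus stand among genes with a higher share, and whether a list went beyond genes of its own level was not tested. The mean of all 8 arrays includes the CPEB1 and IgG values themselves, so its bins are not independent of the size rule.

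**Figure D3:**
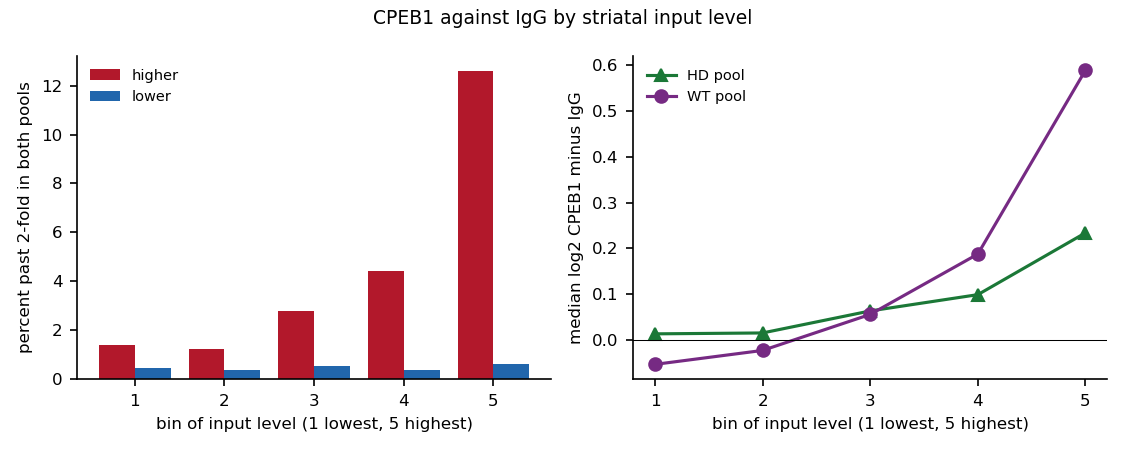
The left panel gives the percent of genes at least 2-fold higher (red) and lower (blue) with CPEB1 in both pools for 5 bins of the mean input level with equal numbers of genes, and the right panel the median log2 difference between CPEB1 and IgG in the HD pool (triangles) and the WT pool (circles). The share higher reaches 12.6% in the highest bin and the medians there reach 0.23 (HD) and 0.59 (WT).

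The 4 lists of cytosolic translation had medians above those of all genes in both pools, whereas mitochondrial ribosomal proteins split, at 0.03 (HD) and 0.74 (WT). Of the cytosolic ribosomal proteins 10 of 67 measured members (14.9%) were 2-fold higher and 0 lower, and the list median was 0.73 (HD) and 0.82 (WT). Above 0 in both pools lay 50 of the 67, against 4056 of all 11345 genes compared. Rps19, of the small subunit, read 9.51 (HD) and 10.24 (WT) with CPEB1, against 7.16 (HD) and 6.22 (WT) with IgG. Rpl8, of the large subunit, read 11.35 (HD) and 11.29 (WT) with CPEB1, against 8.49 (HD) and 9.33 (WT) with IgG. Rplp1, of the ribosomal stalk, read 9.17 (HD) and 10.09 (WT) with CPEB1, against 7.50 (HD) and 7.27 (WT) with IgG. In each the CPEB1 values lay above both IgG values, while inputs of Rpl8 were 11.25 (HD) and 10.23 (WT), close to its CPEB1 values. Rpl13, Rpl28, Rpl36a, Rps13, Rpl24, Rps2 and Rps28 were the other members past 2-fold, and Rpl28 averaged lower with CPEB1 than in the input. The members of this list had a median signal of 9.61 over the 8 arrays, against 5.54 for all genes compared. With cyclic loess scaling the count was 2, with quantile scaling 6, with averaged probe sets 9 and against input in place of IgG 4. The list median minus that of all genes was 0.00585 after loess and 0.58 after quantile scaling, against 0.84 as deposited.

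Of elongation, release and ribosome recycling factors 4 of 13 (30.8%) were 2-fold higher, with a list median of 0.58 (HD) and 1.07 (WT). Eef1g, a subunit of the factor that recharges eEF1A, read 10.29 (HD) and 10.25 (WT) with CPEB1, against 6.33 (HD) and 4.41 (WT) with IgG. Eef1a2, the eEF1A of neurons and muscle, read 11.25 (HD) and 10.997 (WT) with CPEB1, against 9.82 (HD) and 8.43 (WT) with IgG. Eef2, the translocation factor, read 11.80 (HD) and 12.55 (WT) with CPEB1, against 9.18 (HD) and 11.48 (WT) with IgG. Eef2 was less clearly separated than the others, since its IgG value in the WT pool lay close to the CPEB1 value of the HD pool. The fourth member was Gtpbp1. The count was 1 after cyclic loess scaling, 1 after quantile scaling, 4 with averaged probe sets and 4 against input. Of aminoacyl-tRNA synthetases 2 of 18 were higher, Sars, which charges serine tRNA, at 10.38 (HD) and 10.66 (WT) with CPEB1, against 7.80 (HD) and 7.84 (WT) with IgG, and Eprs at 1.06 (HD) and 1.12 (WT) on the log2 difference scale. Translation initiation factors had 1 of 35, Eif5, and mitochondrial ribosomal proteins 3 of 68 (4.41%), Mrpl34, Mrpl28 and Mrpl10, near the share of all genes. The 4 cytosolic translation lists together held 17 of 133 (12.8%).

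**Figure D4:**
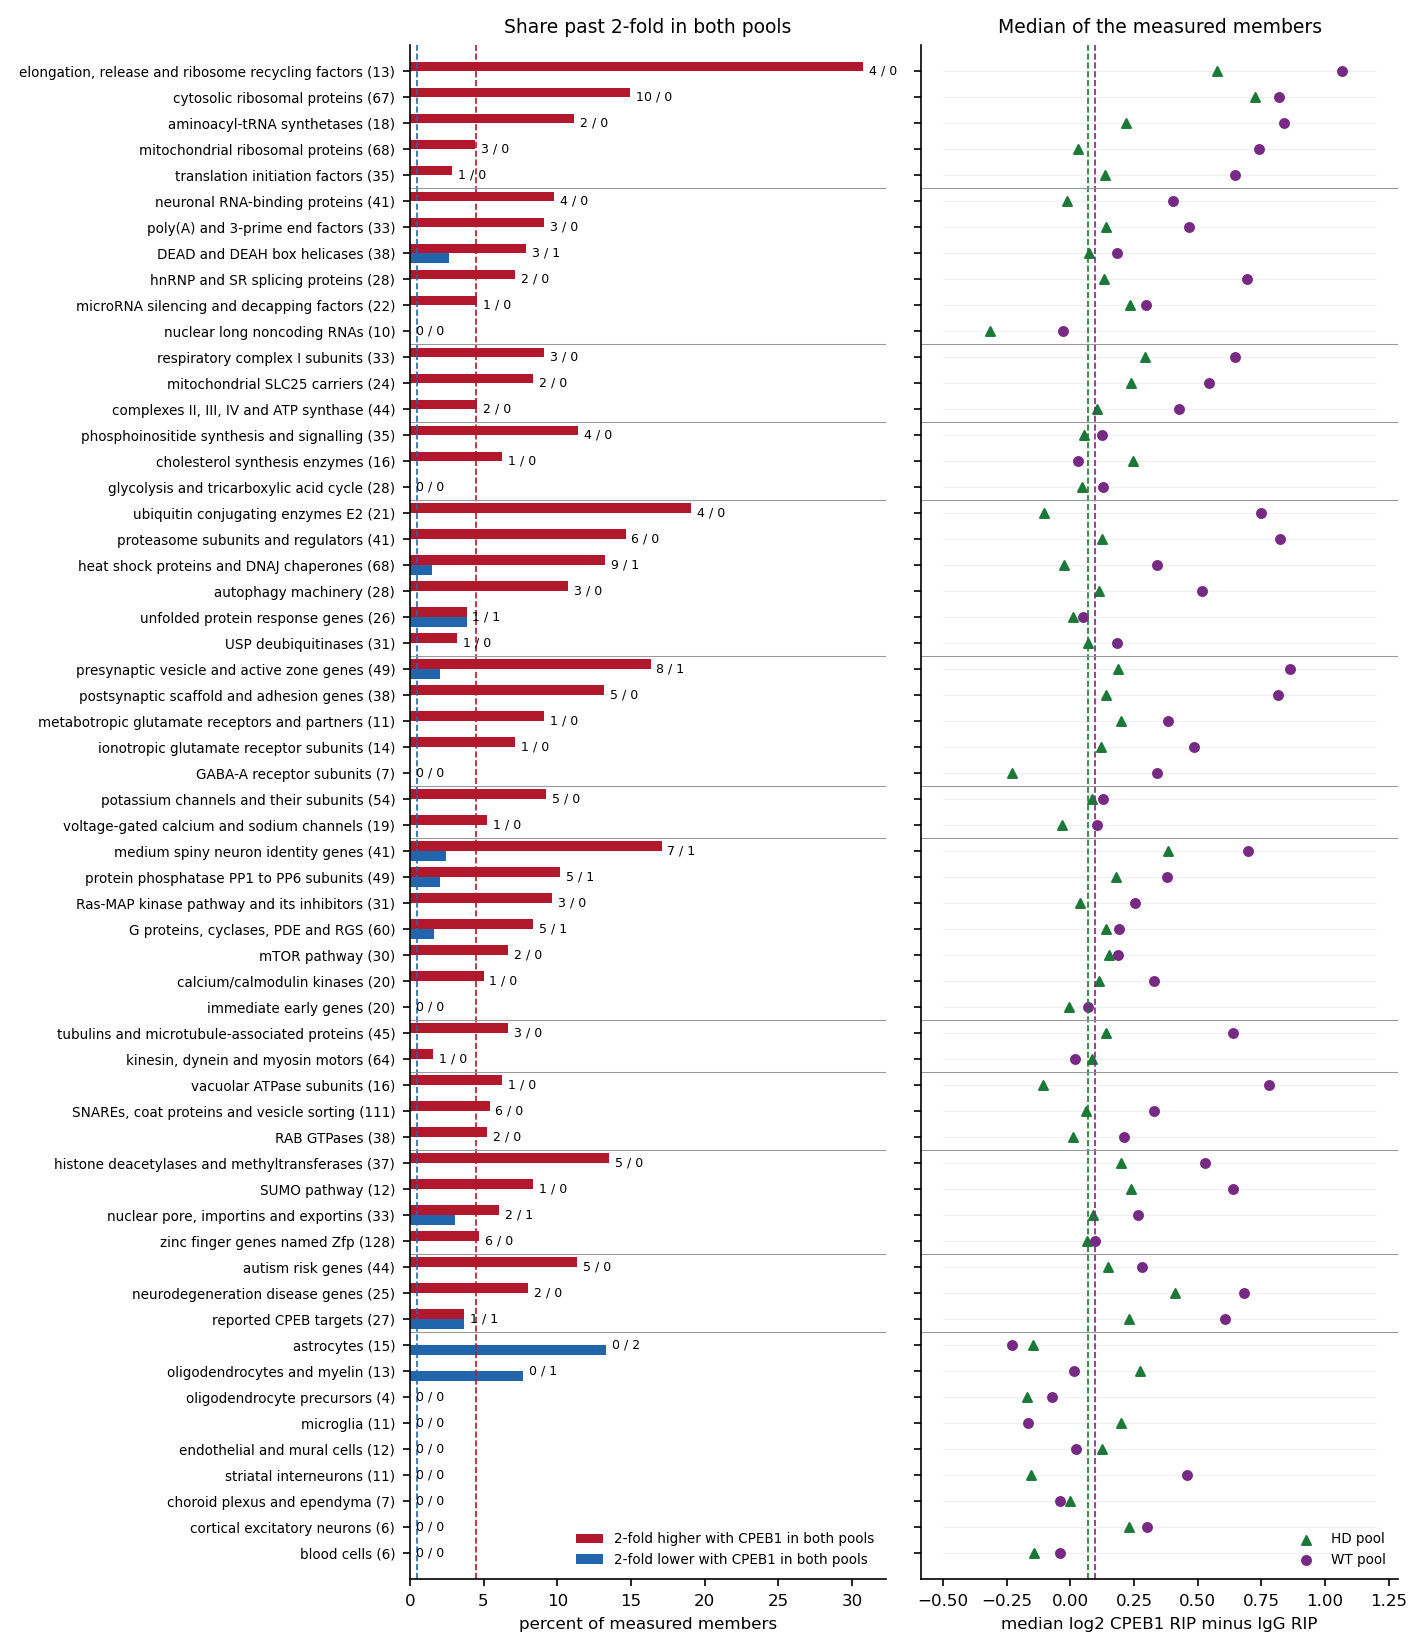
For each gene list (number of measured members in brackets) the left panel gives the percent of members at least 2-fold higher (red) and lower (blue) with CPEB1 in both pools, with the counts higher / lower beside the bars and dashed lines at 4.48% and 0.458% for all genes. The right panel gives the list's median log2 difference in the HD pool (triangles) and the WT pool (circles), with dashed lines at the medians of all genes, and shows that the WT medians lie further out than the HD medians for most lists.

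Of the protein turnover lists, 4 had a share 2-fold higher above the 4.48% of all genes, while USP deubiquitinases at 3.23% and unfolded protein response genes at 3.85% lay below it. Of proteasome subunits and regulators 6 of 41 (14.6%) were 2-fold higher, with a median of 0.13 (HD) and 0.82 (WT). Psmd6, of the regulatory lid, read 6.07 (HD) and 6.50 (WT) with CPEB1, against 3.56 (HD) and 3.74 (WT) with IgG. All its IgG, CPEB4 and input values lay under 4.23, so Psmd6 passed the level filter only through its high CPEB1 values. Psma7, of the core ring, read 8.61 (HD) and 8.78 (WT) with CPEB1, against 6.45 (HD) and 6.42 (WT) with IgG. Psmc1, an ATPase of the regulatory base, read 7.97 (HD) and 9.17 (WT) with CPEB1, against 5.79 (HD) and 7.16 (WT) with IgG. For all 3 both inputs lay under both CPEB1 values, and for Psmc1 the inputs, at 4.55 (HD) and 4.50 (WT), also lay under both IgG values. Psmd7, Psmc5 and Psme2 were the others. Cyclic loess scaling gave 6 such members, quantile scaling 7, averaged probe sets 3 and input as the control 6. Of E2 ubiquitin conjugating enzymes 4 of 21 (19%) were higher, Ube2g2, Ube2h, Ube2w and Ube2v1, while the list median split at -0.10 (HD) and 0.75 (WT). Ube2g2, an enzyme of degradation from the endoplasmic reticulum, read 7.76 (HD) and 7.45 (WT) with CPEB1, against 5.32 (HD) and 5.10 (WT) with IgG. With cyclic loess scaling the count was 3, with quantile scaling 4, with averaged probe sets 0 and against input in place of IgG 1.

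Of heat shock proteins and DNAJ chaperones 9 of 68 (13.2%) were higher and Dnajb1 lower, with list medians of -0.03 (HD) and 0.34 (WT). Dnajb2, a neuronal co-chaperone of HSP70, read 8.27 (HD) and 9.02 (WT) with CPEB1, against 5.64 (HD) and 5.29 (WT) with IgG. Stip1, which links HSP70 to HSP90, read 8.60 (HD) and 8.27 (WT) with CPEB1, against 5.85 (HD) and 6.05 (WT) with IgG. Tcp1, a subunit of the TRiC chaperonin, read 8.48 (HD) and 8.86 (WT) with CPEB1, against 6.39 (HD) and 5.72 (WT) with IgG. TRiC supplied Cct3 and Cct4 as well, and the rest were Stub1, Dnajc27, Hspe1 and Bag1. Of the 3 chaperones given by array, Stip1 was the most even, with a limma log2 difference of 2.48 ± 0.29 (adjusted p = 0.121). The count was 5 after cyclic loess scaling, 5 after quantile scaling, 6 with averaged probe sets and 3 against input. Of the autophagy machinery 3 of 28 (10.7%) were higher, Becn1, Wipi2 and Atg13, and of USP deubiquitinases 1 of 31, Usp20. The unfolded protein response list had 1 of 26 higher, Ddit3, and Xbp1 lower, with a median below that of all genes in both pools at 0.00855 (HD) and 0.05 (WT).

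Poly(A) tail, deadenylation and 3′ end factors had 3 of 33 (9.09%) with a median of 0.14 (HD) and 0.46 (WT): Pabpc1, the cleavage complex scaffold Sympk at 8.32 (HD) and 8.60 (WT) with CPEB1, against 7.13 (HD) and 7.36 (WT) with IgG, and the deadenylase Cnot8 at 6.39 (HD) and 7.42 (WT) with CPEB1, against 5.32 (HD) and 5.50 (WT) with IgG. Cnot8 stood below its inputs of 6.59 (HD) and 8.42 (WT). Neuronal RNA-binding proteins had 4 of 41 (9.76%), Rbfox2, Syncrip, Purb and Ybx1, with list medians that split at -0.01 (HD) and 0.40 (WT). Syncrip, an hnRNP of neuronal granules, read 7.63 (HD) and 6.82 (WT) with CPEB1, against 4.60 (HD) and 4.66 (WT) with IgG, and Purb, a granule protein, read 11.50 (HD) and 11.39 (WT) with CPEB1, against 8.94 (HD) and 9.60 (WT) with IgG. MicroRNA silencing and decapping factors had 1 of 22, the helicase Ddx6, which is also a partner of CPEB in repressed particles, at 9.94 (HD) and 9.22 (WT) with CPEB1, against 6.17 (HD) and 8.21 (WT) with IgG. Ddx6 was uneven, with a difference of 3.77 in the HD pool and 1.01 in the WT pool. The hnRNP and SR proteins had 2 of 28, U2af1 and Pcbp4, and the DEAD and DEAH box helicases 3 of 38, Dhx38, Ddx24 and Ddx6, with Ddx5 lower. Of the nuclear long noncoding RNAs 0 of 10 were higher, and their median lay below that of all genes at -0.32 (HD) and -0.03 (WT). Against input in place of IgG that median lay above that of all genes, by 0.60.

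Synaptic genes past 2-fold lay on both sides of the synapse. Of presynaptic vesicle and active zone genes 8 of 49 (16.3%) were 2-fold higher and Syt11 lower, with a median of 0.19 (HD) and 0.86 (WT). Syn2, a synapsin that tethers vesicles, read 9.09 (HD) and 8.64 (WT) with CPEB1, against 6.45 (HD) and 6.58 (WT) with IgG. Ppfia4, a liprin of the active zone, read 9.18 (HD) and 9.64 (WT) with CPEB1, against 6.67 (HD) and 7.13 (WT) with IgG. Lin7a, a scaffold on both sides of the synapse, read 7.67 (HD) and 8.54 (WT) with CPEB1, against 5.56 (HD) and 5.25 (WT) with IgG. For Syn2 and Ppfia4 both CPEB1 values lay above both inputs, and for Lin7a only the WT value did. Syt7, Syngr1, Cplx2, Rph3a and Cplx1 were the others, and Syngr1 stood below its inputs of 11.16 (HD) and 10.77 (WT). Cyclic loess scaling gave 4 such members, quantile scaling 5, averaged probe sets 5 and input as the control 3. Of postsynaptic scaffold and adhesion genes 5 of 38 (13.2%) were higher, Cnih2, Agap2, Shank1, Sipa1l1 and Iqsec1, with a median of 0.14 (HD) and 0.82 (WT). Cnih2, an auxiliary subunit of AMPA receptors, read 9.61 (HD) and 10.21 (WT) with CPEB1, against 6.61 (HD) and 7.29 (WT) with IgG, and its inputs were higher still at 10.43 (HD) and 10.66 (WT). Shank1, the postsynaptic density scaffold, read 6.38 (HD) and 7.48 (WT) with CPEB1, against 4.96 (HD) and 6.21 (WT) with IgG, with an input in the HD pool of 7.63. With cyclic loess scaling the count was 2, with quantile scaling 2, with averaged probe sets 3 and against input in place of IgG 4. The synaptic lists together, receptors included, held 15 of 119 (12.6%).

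Ionotropic glutamate receptors had 1 of 14 (7.14%), the kainate subunit Grik5 at 8.84 (HD) and 9.66 (WT) with CPEB1, against 7.17 (HD) and 6.83 (WT) with IgG, metabotropic glutamate receptors and partners 1 of 11 (9.09%), the G protein Gna11, and GABA-A receptors 0 of 7. In lists of this size 1 gene moves the share past the 4.48% of all genes. Potassium channels and their subunits had 5 of 54 (9.26%), with list medians next to those of all genes at 0.08 (HD) and 0.13 (WT). Kcnmb4, the neuronal β subunit of BK channels, read 7.39 (HD) and 8.10 (WT) with CPEB1, against 5.56 (HD) and 4.97 (WT) with IgG. Kcnc1, a potassium channel of fast-spiking neurons, read 9.06 (HD) and 8.94 (WT) with CPEB1, against 7.38 (HD) and 7.16 (WT) with IgG. Kcnab2, a β subunit of voltage-gated potassium channels, read 8.09 (HD) and 10.90 (WT) with CPEB1, against 6.32 (HD) and 6.71 (WT) with IgG. The inputs of Kcnmb4 lay under its IgG values at 4.65 (HD) and 4.29 (WT). Kcnj11 and Kcnj4, both inward rectifiers, were the others. The count was 3 after cyclic loess scaling, 4 after quantile scaling, 3 with averaged probe sets and 2 against input. Voltage-gated calcium and sodium channels had 1 of 19, Scn2b.

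Genes of medium spiny neuron identity, the projection neurons of striatum, had 7 of 41 (17.1%) higher and Gnal lower, with a median of 0.38 (HD) and 0.70 (WT). Of the 41, 22 lay above 0 in both pools and 9 below 0 in both. Of all 11345 genes compared, 4056 lay above 0 in both pools and 2452 below 0 in both. Penk, high in the inputs, read 9.70 (HD) and 10.72 (WT) with CPEB1, against 9.96 (HD) and 11.03 (WT) with IgG. Ppp1r1b and Pde10a stood near IgG in the WT pool, at 11.11 against 11.04 and 11.94 against 11.97, and above it in the HD pool. Rasgrp2, an activator of Rap enriched in these neurons, read 8.92 (HD) and 9.88 (WT) with CPEB1, against 4.93 (HD) and 6.96 (WT) with IgG. Adcy5, the main adenylyl cyclase of striatum, read 11.52 (HD) and 12.21 (WT) with CPEB1, against 9.63 (HD) and 11.18 (WT) with IgG. Meis2, a transcription factor of the striatal lineage, read 5.92 (HD) and 8.86 (WT) with CPEB1, against 4.09 (HD) and 7.10 (WT) with IgG. Rasgrp2 was low in the inputs, at 6.05 (HD) and 5.80 (WT), whereas Meis2 was far higher there, at 9.77 (HD) and 9.15 (WT). Spred1, Lrpap1, Six3 and Bcl11b were the others, and Lrpap1 averaged below input. Gnal, the G protein that couples dopamine receptors to cyclase in striatum, read 4.13 (HD) and 7.54 (WT) with CPEB1, against 6.88 (HD) and 9.12 (WT) with IgG, 2-fold lower in both pools although its CPEB1 value in the WT pool exceeded its IgG value in the HD pool. Cyclic loess scaling gave 5 such members, quantile scaling 4, averaged probe sets 3 and input as the control 5.

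The wider signalling lists were nearer to all genes in their medians. G protein subunits, cyclases, phosphodiesterases and RGS proteins had 5 of 60 (8.33%), with Gnb1 at 8.31 (HD) and 10.51 (WT) with CPEB1, against 5.58 (HD) and 6.79 (WT) with IgG and Adcy1, a calcium-stimulated cyclase, at 8.76 (HD) and 10.28 (WT) with CPEB1, against 4.53 (HD) and 7.70 (WT) with IgG. Gnb1 was much higher in the inputs, at 11.46 (HD) and 11.63 (WT), and Adcy1 much lower, at 4.69 (HD) and 5.48 (WT). Protein phosphatase subunits had 5 of 49 (10.2%), Ppp1r12b, Ppp1r16b, Ppp2r2c, Ppp4c and Ppp1r11. Ppp3ca, the catalytic subunit of calcineurin, was lower, at 4.55 (HD) and 6.40 (WT) with CPEB1, against 5.94 (HD) and 8.96 (WT) with IgG. The Ras-MAP kinase list had 3 of 31, Rasgrp2, Spred1 and Dusp8, the mTOR list 2 of 30, Akt2 and Mlst8, the calcium/calmodulin kinases 1 of 20, Camkk2, and the phosphoinositide genes 4 of 35 (11.4%). Of the last, Pip5k1c, which makes the lipid that AP-2 binds, read 10.10 (HD) and 10.70 (WT) with CPEB1, against 7.05 (HD) and 7.78 (WT) with IgG, and Dgkz, a diacylglycerol kinase, read 7.72 (HD) and 8.91 (WT) with CPEB1, against 5.67 (HD) and 4.33 (WT) with IgG, below its inputs of 9.69 (HD) and 9.64 (WT). Immediate early genes, which activity induces, had 0 of 20.

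**Figure D5:**
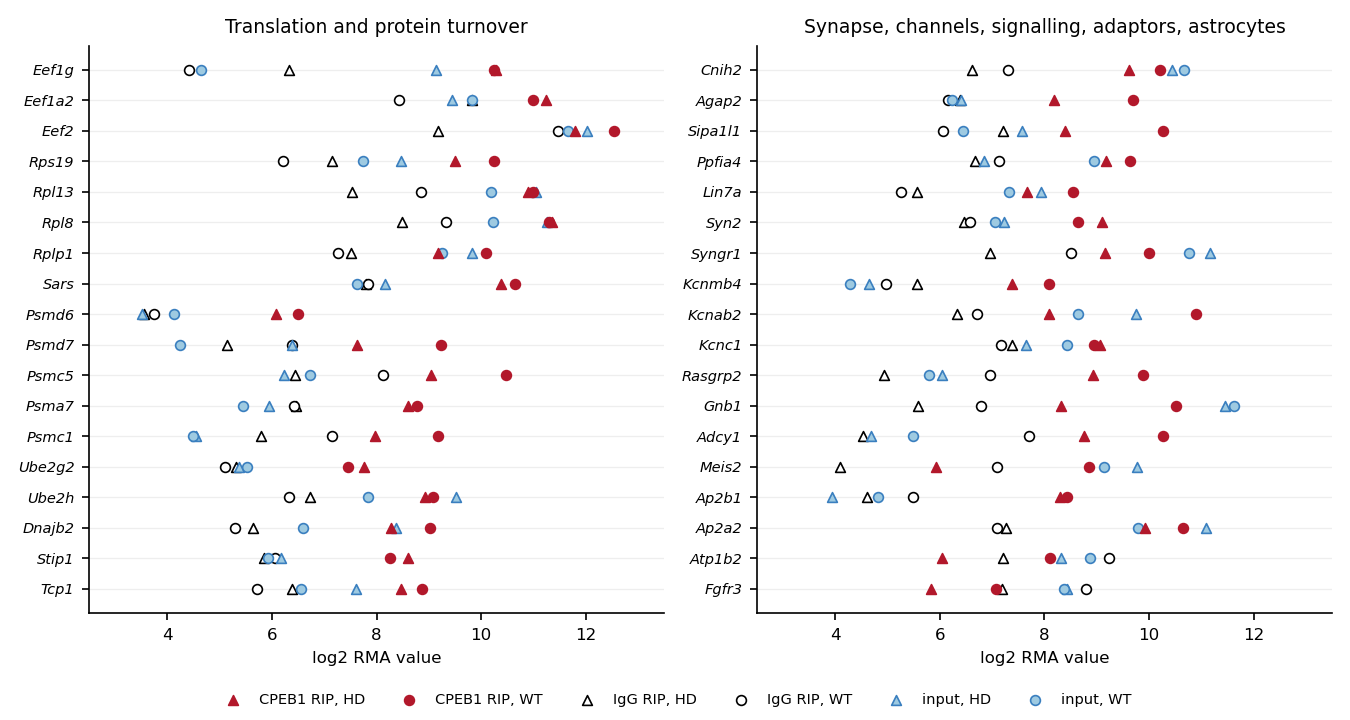
Log2 RMA values (x axis) of members of the named classes, 1 row per gene, with translation and protein turnover genes on the left and synapse, channel, signalling, adaptor and astrocyte genes on the right. Triangles are the HD pool and circles the WT pool, with CPEB1 RIP filled red, IgG RIP open and input blue. Red points lie right of the open points of their pool in all rows but Atp1b2 and Fgfr3.

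In the cytoskeleton and trafficking lists, tubulins and microtubule-associated proteins had 3 of 45 (6.67%), Map2, Map7d1 and Map7. Map2, the dendritic microtubule protein, read 7.58 (HD) and 8.49 (WT) with CPEB1, against 5.95 (HD) and 7.05 (WT) with IgG. Motors had 1 of 64 (1.56%), Myo18a, below the share of all genes, and the SNARE, coat and sorting list 6 of 111 (5.41%), near it. The sorting list held Ap2b1 and the other large AP-2 subunit gene Ap2a2 at 9.93 (HD) and 10.66 (WT) with CPEB1, against 7.27 (HD) and 7.08 (WT) with IgG, along with Vps26b, Snx29, Ap1s1 and Copg1. None of the 3 other probe sets of Ap2a2 above the level filter was higher with CPEB1 in both pools. RAB GTPases had 2 of 38 and the vacuolar ATPase 1 of 16, Atp6v1f.

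Respiratory complex I had 3 of 33 (9.09%), Ndufv1, Ndufb10 and Ndufb8, with a median of 0.29 (HD) and 0.64 (WT), and complexes II to V had 2 of 44 (4.55%), Cox7a2l and Atp5c1. Ndufv1, the NADH-binding subunit, read 9.32 (HD) and 10.15 (WT) with CPEB1, against 5.52 (HD) and 7.80 (WT) with IgG, with inputs of 11.32 (HD) and 10.14 (WT). Mitochondrial carriers had 2 of 24 (8.33%), Slc25a22, which carries glutamate, and Slc25a39. Cholesterol synthesis had 1 of 16, its regulator Srebf2, and glycolysis and the tricarboxylic acid cycle 0 of 28, although its members had a median signal over the 8 arrays of 8.07.

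Of histone deacetylases and methyltransferases 5 of 37 (13.5%) were higher, with a median of 0.20 (HD) and 0.53 (WT). Kmt2c, a histone methyltransferase, read 7.57 (HD) and 8.67 (WT) with CPEB1, against 5.53 (HD) and 6.06 (WT) with IgG, and its inputs read 5.003 (HD) and 5.63 (WT). Ehmt2, another methyltransferase, read 10.81 (HD) and 11.20 (WT) with CPEB1, against 6.66 (HD) and 9.64 (WT) with IgG, and Hdac5 read 11.19 (HD) and 11.39 (WT) with CPEB1, against 8.33 (HD) and 10.22 (WT) with IgG. Ehmt2 and Hdac5 had IgG values in the WT pool well above those of the HD pool, so that their differences were larger in the HD pool. Hdac11 and Sirt3 were the others. With cyclic loess scaling the count was 2, with quantile scaling 4, with averaged probe sets 4 and against input in place of IgG 1. Autism risk genes had 5 of 44 (11.4%), each known as a regulator of chromatin, transcription or translation: Kmt2c, Tcf20, Gigyf1, Ankrd11 and Phf12. Ankrd11, a chromatin co-regulator, read 11.85 (HD) and 11.79 (WT) with CPEB1, against 8.57 (HD) and 10.41 (WT) with IgG. Neurodegeneration genes had 2 of 25, Becn1 and Hip1r, with a median of 0.41 (HD) and 0.68 (WT). The nuclear pore and importin list had 2 of 33 higher, Ipo9 and Ipo13, and Ipo5 lower, the SUMO pathway 1 of 12, and genes named Zfp 6 of 128 (4.69%), the share of all genes.

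mRNAs reported elsewhere as CPEB targets did not stand out by count. Of 27 measured, 1 was 2-fold higher, Map2, and 1 lower, Ddx5, a share of 3.7% higher, against 4.48% of all genes, while the list median of 0.23 (HD) and 0.61 (WT) lay above that of all genes. Against input in place of IgG that median lay below that of all genes, at -0.32 relative to it on the log2 scale. Of the CPEB family, Cpeb3 mRNA read 10.12 (HD) and 10.17 (WT) with CPEB1, against 7.29 (HD) and 9.30 (WT) with IgG, with inputs of 7.58 (HD) and 7.14 (WT), so it was 2-fold higher in the HD pool and 0.86 higher on the log2 scale in the WT pool. A second Cpeb3 probe set above the level filter went the other way in the HD pool, with log2 differences of -0.29 (HD) and 1.24 (WT). Probe sets for Cpeb1, Cpeb2 and Cpeb4 did not pass the level filter, and Cpeb1 read 3.46 (HD) and 3.90 (WT) with CPEB1, against 3.13 (HD) and 3.38 (WT) with IgG. Htt, the huntingtin gene, read 6.79 (HD) and 5.69 (WT) with CPEB1, against 5.84 (HD) and 6.06 (WT) with IgG, a difference above 0 in the HD pool and below 0 in the WT pool.

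Markers of cells other than neurons held no gene at 2-fold higher with CPEB1, and neither did those of striatal interneurons or cortical excitatory neurons. Of 66 measured markers of glia, vessels, ependyma and blood 0 were 2-fold higher, against 4.48% of all genes compared. Lower were 3, against 0.458% of all genes, and the medians were 0.08 (HD) and -0.11 (WT). Whether these counts differ from the shares of all genes was not tested. The 3 lower markers were the astrocyte genes Fgfr3 and Atp1b2 and the myelin gene Cldn11. Atp1b2, a sodium pump subunit, read 6.04 (HD) and 8.11 (WT) with CPEB1, against 7.20 (HD) and 9.24 (WT) with IgG. Fgfr3, a growth factor receptor, read 5.82 (HD) and 7.08 (WT) with CPEB1, against 7.20 (HD) and 8.79 (WT) with IgG. Cldn11, the claudin of myelin, read 3.91 (HD) and 4.28 (WT) with CPEB1, against 5.02 (HD) and 5.80 (WT) with IgG. Within each pool these genes were lower with CPEB1, but values of Atp1b2 and Fgfr3 differed so much between the pools that the CPEB1 value of the WT pool lay near or above the IgG value of the HD pool. Striatal interneuron markers had 0 of 11 and cortical excitatory markers 0 of 6.

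The astrocyte markers, with 2 of 15 (13.3%) 2-fold lower against 0.458% of all genes, were the one list with more than 1 lower gene, and neither of the pair is among the 15 lowest. Lgals2, a galectin, read 5.78 (HD) and 5.62 (WT) with CPEB1, against 10.58 (HD) and 9.76 (WT) with IgG, with inputs of 5.50 (HD) and 5.28 (WT), so IgG alone stood apart. Ddx5, a DEAD-box helicase, read 3.12 (HD) and 3.44 (WT) with CPEB1, against 6.69 (HD) and 7.76 (WT) with IgG, and Xbp1, the transcription factor of the unfolded protein response, read 4.85 (HD) and 3.32 (WT) with CPEB1, against 8.33 (HD) and 6.50 (WT) with IgG. The inputs of Xbp1, at 3.85 (HD) and 3.60 (WT), lay below its CPEB1 value in the HD pool and above it in the WT pool. Without the IgG arrays the averages of Ddx5 and Xbp1 lay under 4.23. Both thus passed the level filter only through high IgG values, also where their lists count them as lower. Pdlim5, which links kinases to the actin cytoskeleton, read 3.92 (HD) and 5.37 (WT) with CPEB1, against 8.76 (HD) and 8.38 (WT) with IgG. Its CPEB1 values stood above its inputs of 3.32 (HD) and 3.93 (WT). Zc3h11a, a factor of mRNA export, read 3.82 (HD) and 3.73 (WT) with CPEB1, against 8.50 (HD) and 6.58 (WT) with IgG. Hmgb1, a chromatin protein, read 4.60 (HD) and 4.45 (WT) with CPEB1, against 6.87 (HD) and 6.86 (WT) with IgG, and Ssr3, of the translocon, read 4.64 (HD) and 6.71 (WT) with CPEB1, against 10.18 (HD) and 8.82 (WT) with IgG. Hmgb1 and Ssr3 were also lower with CPEB1 than in input, at 6.42 (HD) and 6.37 (WT) for Hmgb1 and 8.18 (HD) and 8.32 (WT) for Ssr3. The limma log2 difference of Lgals2 was -4.47 ± 0.28 (SE, adjusted p = 0.121) and that of Hmgb1 -2.34 ± 0.31 (adjusted p = 0.134). The other 8 of the 15 lowest were Pdpr, Plpp6, Cmss1, Baiap3, Slc30a4, Sprr2a1, Coq9 and Cblb, with differences between -6.32 and -1.59 in the pools. Slc30a4, like Ddx5 and Xbp1, passed the level filter only through its IgG values. Sprr2a1, a gene of skin barrier, was the most uneven, at 8.001 (HD) and 4.79 (WT) with CPEB1, against 9.69 (HD) and 11.11 (WT) with IgG.

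Input gave a second view of the same genes. Of the 508 higher genes 340 (66.9%) were above the input of their own pool in both pools, against 24.5% of all genes compared, and 22 were below it in both, against 24.3%. Of the 52 lower genes 20 were below input in both pools and 6 above. Since the CPEB1 values enter both comparisons, the share above input is not an independent check. A gene's other probe sets are a separate reading of the same arrays. The 508 higher genes had 423 other probe sets above the level filter, in 268 genes, of which 18.4% were 2-fold higher in both pools and 57% above 0 in both. Among 4384 other probe sets of the remaining genes these shares were 3.17% and 34.5%. Of 37 other probe sets of 25 lower genes, 6 were 2-fold lower in both pools and 15 below 0 in both. Among the chosen probe sets of all 11345 genes, 52 (0.458%) were 2-fold lower in both pools and 2452 below 0 in both. Shares in this direction were not taken for the other probe sets of the remaining genes. All other probe sets above the level filter ran the same way in both pools for Cds2 (4), Zfp622 (2), Rbfox2 (3) and Ppp1r12b (2), and for the single ones of Hira, Fbxo31, Fam32a, Tbc1d16 and Lgals2. None did for Strbp (3) or for the single ones of Eef1g, Fam184a, Wipi2, Ddx5, Xbp1, Pdpr, Plpp6 and Cmss1, and 2 of 3 did for Pdlim5, among the 25 highest and 15 lowest genes. The other probe set of Plpp6 was 2-fold higher with CPEB1, at 1.90 (HD) and 1.38 (WT), and that of Pdpr was higher at 0.28 (HD) and 2.21 (WT). Both genes are thus contradicted by a second probe set of the same arrays. Further list members, named to make counts complete, were not checked one by one. Among list members named by rule, up to 5 per list, 65 genes named for no other reason had other probe sets above the filter. All of these probe sets ran the same way as the gene in 31 genes, some in 14 and none in 20. Those 20 were Mrpl34, Cnot8, Ddx6, Ybx1, Atp5c1, Slc25a39, Srebf2, Dgkz, Ube2g2, Sipa1l1, Kcnj11, Gnal, Mlst8, Map2, Map7, Ap2a2, Snx29, Sae1, Tcf20 and Atp1b2, so their direction rests on 1 probe set. For some of them another probe set went the opposite way in both pools, as for Ddx6 at -0.29 (HD) and -1.58 (WT), Ybx1 at -0.46 (HD) and -0.74 (WT) and Ube2g2 at -0.0358 (HD) and -0.44 (WT).

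Some of the widest differences of a single pool were turned round in the other. Chosen after their values were seen, Pacs2, a sorting protein, read 5.03 (HD) and 10.25 (WT) with CPEB1, against 11.59 (HD) and 4.58 (WT) with IgG, and Tlk1, a chromatin kinase, read 4.27 (HD) and 8.93 (WT) with CPEB1, against 8.74 (HD) and 4.09 (WT) with IgG. Both genes were low with CPEB1 and high with IgG in the HD pool, and the reverse in the WT pool. Cnp, a myelin enzyme, ran the other way, at 9.24 (HD) and 7.88 (WT) with CPEB1, against 6.19 (HD) and 10.69 (WT) with IgG. Each such value rests on 1 array, and the difference between the pools was not tested.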

How the data were processed

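RNA of striatal fractions of a WT and an HD pool was measured on Affymetrix mouse arrays. The authors deposited log2 values, which are RMA summaries per the submitters' processing notes. Whether RMA took the 8 arrays together, and which version ran, was not given in the sources used here. Values were used as deposited. Of 45101 probe sets, 28898 had 1 gene symbol in the platform annotation, 551 several and 15652 none; 28689 were matched to RefSeq (assembly GRCm38.p6). No coordinates are printed, because the build of the annotation was not given, and 3′ untranslated sequence was not used here.

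CPEB1 RIP and IgG RIP were set against each other by limma 3.58.1 under R 4.3.3 (eBayes, two-sided, Benjamini-Hochberg adjusted p under 0.05) on all 8 arrays, with fraction and genotype pool as terms (3 residual degrees of freedom, 2.29 from the prior), and by size, at least 2-fold in the same direction in both pools. The pairing is by pool, since the fractions of a genotype come from the same pooled mice. Errors are standard errors (SE) from this fit, and p-values measure only how unevenly fractions differ between the pools. The number of arrays limits the precision. The code of the fit was run on simulated data with noise set from these arrays. That run checks the code and is no evidence on any gene here.

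Named genes were the 25 highest and 15 lowest by the smaller absolute difference of the pools among genes at 2-fold in both, up to 5 such members of each list, the 10 smallest limma p-values, Cpeb1 to Cpeb4 and Htt; clones and predicted genes were not named. Further list members at 2-fold were named after their values were seen, to make counts complete. The members and the lists were chosen with earlier results of these data known, and 1 list is not reported here. Alternatives were other filters, averaged probe sets, cyclic loess, quantile and median scaling, no block, fewer arrays in the fit, trended robust eBayes, input as the control, 1.5-fold and 3-fold thresholds, and each array left out in turn.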

Additional observations from a re-analysis of the deposited data

Results flagged for a closer look

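The pools went opposite ways in the median difference between CPEB1 and IgG for 9 gene lists and in that of Htt. Each rests on 1 array per fraction and pool, and the difference between the pools was not tested. The HD minus WT value was -0.42 for neuronal RNA-binding proteins, -0.85 for E2 ubiquitin conjugating enzymes, -0.37 for heat shock proteins and DNAJ chaperones, -0.57 for GABA-A receptor subunits, -0.14 for voltage-gated calcium and sodium channels, -0.0774 for immediate early genes, -0.89 for vacuolar ATPase subunits and -0.61 for striatal interneuron markers, with the HD median below 0 and the WT median above it. For microglial markers it was 0.36, with medians of 0.20 (HD) and -0.17 (WT). For Htt it was 1.31, from differences of 0.94 (HD) and -0.37 (WT).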

How the results depend on the processing

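limma called 0 genes under each alternative with IgG as the control, namely other filters, scalings and models and the 4 fits that left out 1 array each, with a smallest adjusted p between 0.0559 and 0.508. Without the pool as a block the count of limma calls was 0 as well, with 676 genes higher and 119 lower at an unadjusted p under 0.05. With input in place of IgG limma called 2 genes, 2 of them higher. Genes 2-fold lower in both pools numbered 52 as reported, 26 with averaged probe sets, 161 after cyclic loess, 143 after quantile scaling and 134 against input. Those 2-fold higher numbered 299 after cyclic loess, all among the 508, 341 after quantile scaling (321 of the 508) and 346 with averaged probe sets (310 of the 508). At an unadjusted limma p under 0.05 there were 478 genes higher and 308 lower after loess, and 511 higher and 323 lower after quantile scaling, which moved the median of all genes to -0.03, against 0.09 as deposited. At 1.5-fold 966 were higher and 178 lower, and at 3-fold 231 and 16. Without the level filter 509 of 17097 genes were 2-fold higher in both pools, against 508 of 11345 with it, so shares of genes depend on the filter. Leaving out each array in turn leaves 1 pool, with 1002 to 2134 higher and 513 to 584 lower. The causes of these shifts were not tested. Depth has no counterpart on arrays, and 16 of the 508 genes (3.15%) read under the level filter with IgG in both pools, against 3.09% of all genes compared.

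Sign changes were counted only for lists whose median lay on the same side of that of all genes in both pools. The 19 split lists were left out, although some changed sign as well. Examples are vacuolar ATPase subunits (-0.18) and neuronal RNA-binding proteins (-0.14) after cyclic loess, and E2 enzymes (-0.0713) with averaged probe sets. Among the lists counted, medians minus that of all genes changed sign in 28 cases. They were -0.0399 for mitochondrial carriers without a filter. With the 75th percentile filter they were 0.0972 for unfolded protein response genes, -0.0309 for G proteins and cyclases, -0.0618 for mTOR pathway, 0.22 for immediate early genes and 0.0655 for Zfp genes. With averaged probe sets they were -0.0533 for DEAD and DEAH helicases, 0.13 for unfolded protein response genes, -0.0374 for G proteins and cyclases and -0.046 for autism risk genes. After cyclic loess they were -0.0679 for respiratory complexes II to V, -0.0167 for mitochondrial carriers, 0.0117 for unfolded protein response genes, -0.0396 for G proteins and cyclases, -0.028 for calcium/calmodulin kinases, -0.0655 for mTOR pathway and 0.015 for Zfp genes. After quantile scaling they were -0.0602 for respiratory complexes II to V, 0.0347 for unfolded protein response genes, -0.0119 for ionotropic glutamate receptors, -0.0204 for potassium channels, -0.0377 for mTOR pathway, -0.0467 for nuclear pore and importins and 0.0176 for Zfp genes. Against input they were 0.60 for nuclear long noncoding RNAs, 0.0629 for Zfp genes, -0.32 for reported CPEB targets and -0.30 for cortical excitatory neurons. The log2 difference changed sign against input for 30 named genes: Cds2 (-1.09), Sec14l1 (-1.35), Lgals2 (0.31), Xbp1 (0.36), Pdlim5 (1.02), Pdpr (0.14), Plpp6 (0.21), Cmss1 (0.12), Sprr2a1 (1.27), Cblb (0.35), Rpl28 (-0.19), Cnot8 (-0.60), Pcbp4 (-0.29), Ndufv1 (-0.99), Dgkz (-1.35), Ube2v1 (-1.05), Cnih2 (-0.64), Shank1 (-0.43), Iqsec1 (-0.35), Syngr1 (-1.39), Meis2 (-2.07), Lrpap1 (-1.64), Gnal (0.78), Gnb1 (-2.14), Dusp8 (-0.37), Rab1b (-0.56), Ap2a2 (-0.14), Ipo9 (-0.41), Ipo5 (1.34) and Zfp358 (-0.31). That of Htt lay between -0.29 and 0.87 when each array was left out, at -0.29 without the HD array of CPEB1 and -0.0096 without that of IgG. The other 2226 values of named genes under the alternatives kept their sign.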
